A study of Mus musculus with 3 samples.

Results

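The 10 genes described here make the gut hormones and transmitters of enteroendocrine cells, the hormone cells scattered through the intestinal epithelium. They were Gip, Cck, Sct, Pyy, Gcg, Nts, Ghrl, Sst, Tac1 and Tph1, 10 of the 13891 genes in the table. Their cells were found by a rule that used none of the 10: a cell was called enteroendocrine where the UMIs (unique molecular identifiers, 1 per captured RNA molecule) of Chgb, Cpe, Scg2 and Neurod1 came to 10 or more per 10000 UMIs of the cell. This took 143 of 12653 cells, or 1.13% (95% interval 0.953 to 1.33), and the other 12510 cells served as the background. The genes were chosen as hormones already known to be high in such cells, so their levels there are a description.

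Enteroendocrine cells arise from crypt stem cells under the transcription factor Neurog3, and then Neurod1, and they store prohormones in dense granules that hold chromogranins and secretogranins. The prohormones are cut by the convertase Pcsk1 and trimmed by the carboxypeptidase Cpe, and the peptides leave on the basal side when nutrients or microbial products reach the gut lumen. The classical scheme gives each hormone its own cell type by letter (K for Gip, I for Cck, S for Sct, L for Gcg and Pyy, N for Nts, X for Ghrl, D for Sst), with serotonin and tachykinin cells called enterochromaffin.

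The cells came from the small intestine of male ICR mice (an outbred stock) in 3 groups. AOS 0 received vehicle by gavage, B + A 0 received busulfan at 40 mg/kg with vehicle, and B + A 10 received busulfan at 40 mg/kg with alginate oligosaccharides (AOS) at 10 mg/kg. The mice were 3 weeks old, busulfan, an alkylating drug that harms dividing cells, was injected at the start, and gavage went on for 2 weeks. The cells of 6 mice per group were combined into 1 droplet library, so that no difference between groups had a replicate check and no test was made. Intervals are given at 95% and cover the error of counting alone, not the spread between mice. Where 3 values stand without a library name, they are in the order AOS 0, then B + A 0, then B + A 10.

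The libraries held 4106 (AOS 0), 3195 (B + A 0) and 5352 cells (B + A 10) with medians of 7371, 6407 and 3505 UMIs per cell. Enteroendocrine cells numbered 57, 28 and 58, with medians of 4776, 5514.5 and 3139.5 UMIs, so that the cells of B + A 10 were the shallowest. In all, 82 cell barcodes occurred in more than 1 library, and 1 enteroendocrine cell carried such a barcode.

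The name of the cells was checked against 15 enteroendocrine markers, of which 4 were those of the rule. Their summed level was 84.1, 65.7 and 60.8 UMIs per 10000 in the enteroendocrine cells of the 3 libraries and 0.345, 0.432 and 0.379 in the other cells, and no marker was at 0. Chgb, a gene of the rule, was alone at 35.5, 38.0 and 30.5 in the enteroendocrine cells, so the sum was in large part set by the rule. The markers outside the rule were each higher in enteroendocrine than in other cells over all libraries, from 20.6-fold (Chga) to 1519-fold (Pax6). The 6 goblet markers were at 58.7, 109 and 144 per 10000 in the enteroendocrine cells against 487, 569.7 and 552 in the other cells, with a range over cells of 10.98 to 306, 28.6 to 549 and 21.7 to 3577. The 7 enterocyte markers were at 36.2, 37.9 and 73.2 against 152, 145 and 169.5, the 6 Paneth markers at 33.3, 51.7 and 34.9 against 374, 779.6 and 436, and the 6 T cell markers at 2.56, 2.45 and 11.01 against 4.86, 5.61 and 7.85. Thus at least 1 cell of B + A 10 carried goblet markers at the level of a goblet cell, and the part of such cells in the values below was not tested. Of the 5 tuft markers Dclk1, Trpm5, Sh2d6 and Rgs13 had no UMI in any enteroendocrine cell, and Cpa3, Mcpt1, Mcpt2 and Tpsb2 of the 5 mast cell markers had none either.

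The limit of the rule was thinly populated. There were 9 cells with a sum of 10 to 12, of which 6 produced a hormone besides Sct and Tac1, and 5 cells with a sum of 8 to 10, of which 4 did.

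All 10 genes are protein coding. On the GRCm38 (mm10) genome in the GENCODE annotation they lie at chr11:96024545-96030831 on the plus strand (Gip), chr9:121489824-121495694 on the minus strand (Cck), chr7:141278330-141279133 on the minus strand (Sct), chr11:102106676-102107832 on the minus strand (Pyy), chr2:62474530-62483650 on the minus strand (Gcg), chr10:102481756-102490486 on the minus strand (Nts), chr6:113716119-113719880 on the minus strand (Ghrl), chr16:23889573-23890958 on the minus strand (Sst), chr6:7554879-7565834 on the plus strand (Tac1) and chr7:46644641-46672537 on the minus strand (Tph1).

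The promoters of Gcg, Cck, Sct and Pyy are shown, since most Gcg producers also produced each of the others. Beside them stand those of Gip, the most abundant of the hormones, and of Tac1, which no enteroendocrine cell produced together with Gip. Each runs 5′ to 3′ on the strand of the gene from 250 bases before to 50 after the transcript start as listed by RefSeq on GRCm38.p6 (for Pyy the first of 2 starts listed). Capitals mark CAGATG and CAGCTG, which are forms of the E-box CANNTG bound by basic helix-loop-helix factors such as Neurog3 and Neurod1, the homeodomain core TAATTA, the TATA box TATAAA and the cAMP response element TGACGTCA. All were searched on both strands except TATAAA, and the capitals of different motifs did not overlap.
Gcg: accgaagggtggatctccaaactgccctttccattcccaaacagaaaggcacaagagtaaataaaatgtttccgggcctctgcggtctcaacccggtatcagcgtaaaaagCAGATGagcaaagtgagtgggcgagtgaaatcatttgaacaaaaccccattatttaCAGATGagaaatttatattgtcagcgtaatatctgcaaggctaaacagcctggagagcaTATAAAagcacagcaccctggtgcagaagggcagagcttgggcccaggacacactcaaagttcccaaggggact
Cck: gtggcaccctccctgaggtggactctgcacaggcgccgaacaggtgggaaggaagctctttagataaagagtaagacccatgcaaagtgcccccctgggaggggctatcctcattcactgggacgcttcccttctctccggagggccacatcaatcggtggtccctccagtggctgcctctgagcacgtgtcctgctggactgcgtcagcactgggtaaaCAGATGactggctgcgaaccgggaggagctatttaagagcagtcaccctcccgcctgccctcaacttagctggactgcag
Sct: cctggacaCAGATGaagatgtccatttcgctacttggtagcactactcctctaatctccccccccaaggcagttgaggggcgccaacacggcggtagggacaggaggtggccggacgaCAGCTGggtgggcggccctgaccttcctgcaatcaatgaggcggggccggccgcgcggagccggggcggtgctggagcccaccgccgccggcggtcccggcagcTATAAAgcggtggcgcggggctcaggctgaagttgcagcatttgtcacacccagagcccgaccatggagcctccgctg
Pyy: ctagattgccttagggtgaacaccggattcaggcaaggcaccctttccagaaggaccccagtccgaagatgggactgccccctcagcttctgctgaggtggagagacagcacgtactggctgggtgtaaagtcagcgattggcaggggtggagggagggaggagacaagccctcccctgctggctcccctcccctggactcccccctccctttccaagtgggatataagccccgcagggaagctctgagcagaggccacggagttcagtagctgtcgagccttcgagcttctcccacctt
Gip: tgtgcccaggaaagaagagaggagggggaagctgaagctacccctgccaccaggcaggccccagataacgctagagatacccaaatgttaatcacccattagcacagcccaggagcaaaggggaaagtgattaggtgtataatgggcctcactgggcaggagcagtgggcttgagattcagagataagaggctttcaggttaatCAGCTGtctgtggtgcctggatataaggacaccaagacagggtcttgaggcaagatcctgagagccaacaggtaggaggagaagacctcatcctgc
Tac1: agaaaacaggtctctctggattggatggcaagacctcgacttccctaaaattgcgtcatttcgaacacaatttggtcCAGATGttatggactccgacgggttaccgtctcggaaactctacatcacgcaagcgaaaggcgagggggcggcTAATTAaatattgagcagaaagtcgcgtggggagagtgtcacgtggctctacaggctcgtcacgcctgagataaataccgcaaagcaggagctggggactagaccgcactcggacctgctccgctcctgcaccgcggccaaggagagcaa
These windows are chr2:62483604-62483903 (Gcg, minus), chr9:121495645-121495944 (Cck, minus), chr7:141279084-141279383 (Sct, minus), chr11:102107783-102108082 (Pyy, minus), chr11:96024295-96024594 (Gip, plus) and chr6:7554811-7555110 (Tac1, plus). CAGATG began at positions -139 and -83 from the start of Gcg, at -30 of Cck, at -242 of Sct and at -173 of Tac1. It was in 17.2% of the first listed promoters of 27025 genes. CAGCTG, which 16.1% of those promoters held, began at -132 of Sct and at -46 of Gip. TATAAA, in 8.88% of promoters, stood at -24 of Gcg and -28 of Sct, and TAATTA, in 5.31%, at -100 of Tac1. The Pyy window held none of the motifs marked. Among the 4 members not printed, the Sst window held TGACGTCA at -48, a motif in 1.88% of all promoters, and the Nts window held CAGCTG at -186 and 8.

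The hormones took a large part of the RNA of their cells. They made up 17.4% of all UMIs of the 143 cells (19.7%, 14.1% and 17.3% in the 3 libraries) against 0.0376% in the other cells. Per cell the median was 11.7%, and 76 of the 143 cells gave at least 10% of their UMIs to the 10 genes, the highest 67.1%. That highest share was alike in the 3 libraries, at 67.1%, 67.0% and 66.1%. A level below is the number of UMIs of a hormone per 10000 UMIs of the enteroendocrine cells summed. Since a molecule is counted at its 3′ end whatever its length, levels of different genes are set side by side without a correction for length. Differences between genes in how well their RNA was captured were not measured.

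Cells were called producers of a hormone where it reached 10 per 10000 with at least 3 UMIs, so that a shallow cell had to reach a higher level than 10 to be called. By this measure 103 of the 143 cells produced Sct, 76 Cck, 50 Pyy, 46 Gip, 29 Gcg, 26 Ghrl, 24 Nts, 22 Tac1, 4 Tph1 and 1 Sst. The order by level was another one: Gip 829.8, Sct 241, Nts 185, Cck 172, Pyy 152, Ghrl 91.7, Gcg 53.7, Sst 11.4, Tac1 6.96 and Tph1 0.961 per 10000. Gip and Nts were made by fewer cells than Sct and Cck, and the median level within producers was 2701 for Gip and 1552 for Nts against 168 for Sct and 155 for Cck.

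**Figure D1:**
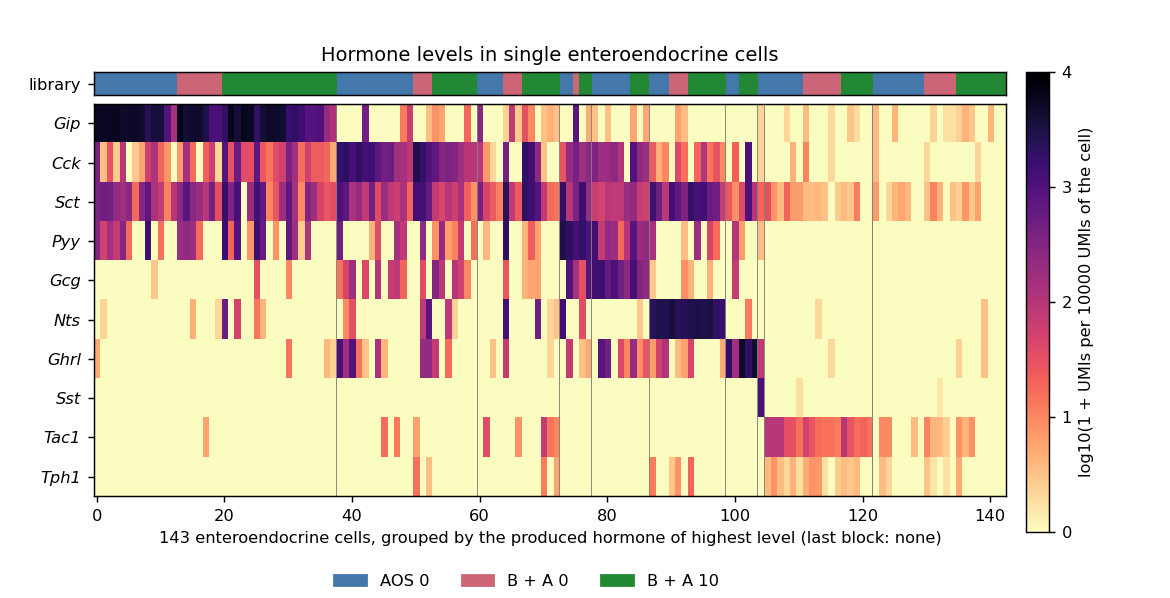
Each column is 1 of the 143 enteroendocrine cells and each row a hormone, with colour for log10 of 1 plus the UMIs per 10000, and the strip gives the library. Cells are grouped by the hormone they produced most. The Gip block of 38 cells and the Nts block of 12 cells stand out in dark colour. Sct runs across nearly all blocks but those of Tac1 and of cells that produced no hormone.

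Gip, the glucose-dependent insulinotropic peptide, which raises insulin release after a meal, was produced by 46 cells with a median of 2701 and a maximum of 6261 per 10000 of a producer's UMIs. The maximum level was in a B + A 0 cell with 3073 Gip UMIs of 4908 in all. The cell with the most Gip UMIs, in AOS 0, held 4713 of 8166. Gip was the leading hormone of 38 cells, more than any other, and these cells gave a median of 47.5% of their UMIs to the 10 genes.

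Cck (cholecystokinin), which drives gall bladder contraction and pancreatic enzyme release, was produced by 76 cells with a median level of 155 and a maximum of 2798, and it led in 22. Sct (secretin), which calls for bicarbonate from the pancreas, was produced by 103 cells with a median of 168 and a maximum of 2369, yet it led in 13 only. Sct was thus the most widespread hormone and mostly a second one.

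The hormones known from the distal gut came next. Gcg, whose product in the gut is glucagon-like peptide, was produced by 29 cells at a median of 103.5 and a maximum of 1525, and Pyy (peptide YY), which slows gastric emptying, by 50 cells at a median of 176 and a maximum of 3000. Nts (neurotensin), which acts on fat absorption and motility, was produced by 24 cells. Its median of 1552 and its range of 11.4 to 3409 showed a wide spread, and it led in 12 cells, which gave a median of 36.6% of their UMIs to the 10 genes.

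Ghrl (ghrelin), the hunger hormone made mostly in the stomach, was produced by 26 cells with a median of 136 and a maximum of 5021, and the strongest cell, in B + A 10, held 1870 Ghrl UMIs of 3724 in all. Sst (somatostatin), which inhibits the release of other hormones, was produced by 1 enteroendocrine cell. That AOS 0 cell held 875 of the 1604 Sst UMIs of the 3 libraries.

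Tac1 (the precursor of substance P) and Tph1 (tryptophan hydroxylase, the first enzyme of serotonin synthesis) mark enterochromaffin cells and were low throughout. Tac1 was produced by 22 cells, at a median of 22.7 and a maximum of 102.5, and Tph1 reached 10 per 10000 in 4 cells, with 6 UMIs at most in a cell, while 28 of the 143 cells had at least 1 Tph1 UMI. The 17 cells that Tac1 led had a median of 8197 UMIs and gave 0.336% of them to the 10 genes. They were the deepest of the leading groups with more than 1 cell, and the least devoted to hormones.

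By this limit for a producer, most cells produced several hormones. No hormone was produced by 21 cells, 1 by 18, 2 by 22, 3 by 32, 4 by 30, 5 by 17 and 6 by 3, so that 82 of 143 cells produced 3 or more. Such cells numbered 34 of 57, 13 of 28 and 35 of 58 in the libraries. The share of cells with 3 or more depended on limit and depth. It was 57.3% here, 30.3% with each cell thinned to 1000 UMIs and 86.0% where 1 UMI made a producer.

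Most Gcg producers also produced Cck, Sct and Pyy. Of the 29 Gcg producers, 28 produced Cck (96.6%, 82.2 to 99.9), 28 Sct and 24 Pyy (82.8%, 64.2 to 94.1). Of the cells that did not produce Gcg, 42.1% produced Cck, 65.8% Sct and 22.8% Pyy. The reverse was less common, since Gcg was produced by 36.8% of Cck, 27.2% of Sct and 48.0% of Pyy producers. Ghrl was produced by 14 of the 29 Gcg producers (48.3%, 29.4 to 67.5) and by 10.5% of the rest. These pairs were met in every library: Gcg with Cck in 15 of 16, 3 of 3 and 10 of 10 producers.

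Gip producers also produced Sct in 43 of 46 cells and Cck in 34 (73.9%, 58.9 to 85.7), and Pyy in 22 (47.8%, 32.9 to 63.1). They seldom produced Gcg (4 cells) or Nts (3), and Ghrl in 1 cell (2.17%, 0.055 to 11.5), whereas Ghrl was produced by 25.8% of the cells that did not produce Gip. Where both hormones had to reach 50 per 10000, Gip and Cck were together in 17 cells of 43 Gip producers, so that the low side of Cck made up much of the overlap.

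All 24 Nts producers produced Sct, 19 produced Cck, 11 Pyy, 9 Ghrl and 5 Gcg. Gcg was thus produced by 20.8% of Nts producers (7.13 to 42.2) and 20.2% of the other enteroendocrine cells. Tac1 stood apart. Of its 22 producers 8 produced Sct (36.4%, 17.2 to 59.3), against 78.5% of the other enteroendocrine cells, 2 produced Cck (9.09%, 1.12 to 29.2) against 61.2%, and none produced Gip, Nts, Ghrl or Sst. For a count of 0 of 22 the exact interval reaches 15.4%. Of the 4 Tph1 producers all produced Sct, 2 Nts and 1 Tac1. The limit for a producer left out deeper cells with as many Tph1 UMIs. An AOS 0 cell with 84 Tac1 UMIs held 6 Tph1 UMIs of 8197, and a B + A 0 cell with 15 Tac1 UMIs held 6 of 9782. By the correlation of levels across all enteroendocrine cells, which used no limit, Tph1 was most like Tac1 (r = 0.58). The partners of the Tph1 producers therefore rest on the limit.

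**Figure D2:**
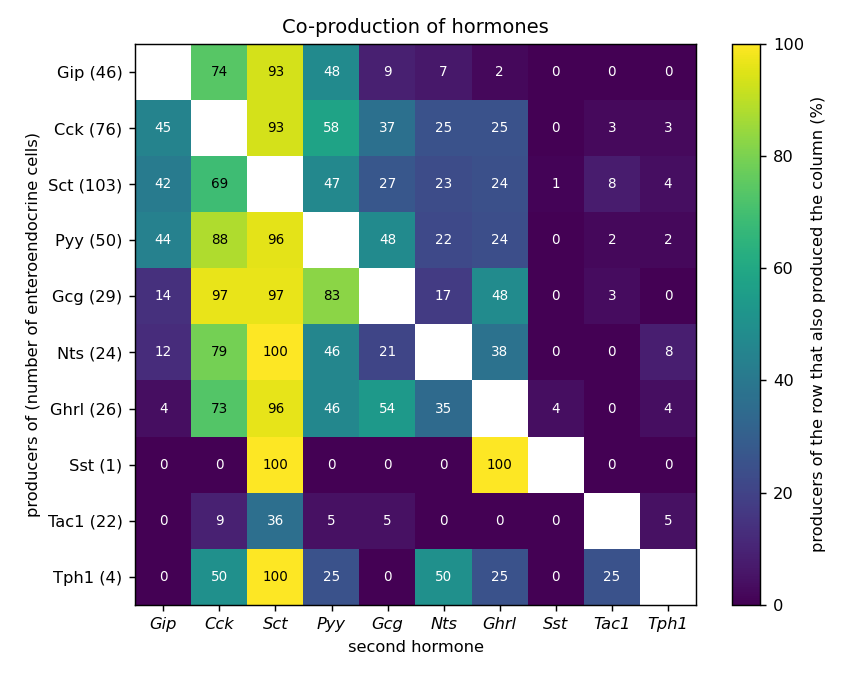
Rows are producers of a hormone, with their number among the 143 enteroendocrine cells, and columns the second hormone, with the number in each square giving the percentage of the row's cells that also produced the column. The Sct and Cck columns are high for the Gip, Pyy, Gcg, Nts and Ghrl rows, and the Tac1 row is low but for Sct.

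The total of a hormone rested on few cells, and how few differed between hormones. The strongest cell held 54.6% of the UMIs of Sst, 22.02% of those of Ghrl, 13.0% of Gcg, 12.4% of Pyy, 10.9% of Nts, 7.48% of Cck, 6.67% of Gip, 6.25% of Tph1, 5.73% of Tac1 and 5.23% of Sct. The top 10 cells of all 12653 held 87.8% of the UMIs of Sst, 76.9% of Ghrl, 75.8% of Gcg, 70.3% of Nts, 67.4% of Pyy, 49.0% of Tph1, 48.6% of Cck, 47.0% of Gip, 23.9% of Tac1 and 23.0% of Sct. It took 4 cells to reach 50% of all Ghrl UMIs, 5 for Gcg, 7 for Pyy and for Nts, 11 for Cck and for Gip, 51 for Tac1 and 56 for Sct. A level of Ghrl, Gcg, Nts or Pyy in a library therefore turned on a handful of cells.

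**Figure D3:**
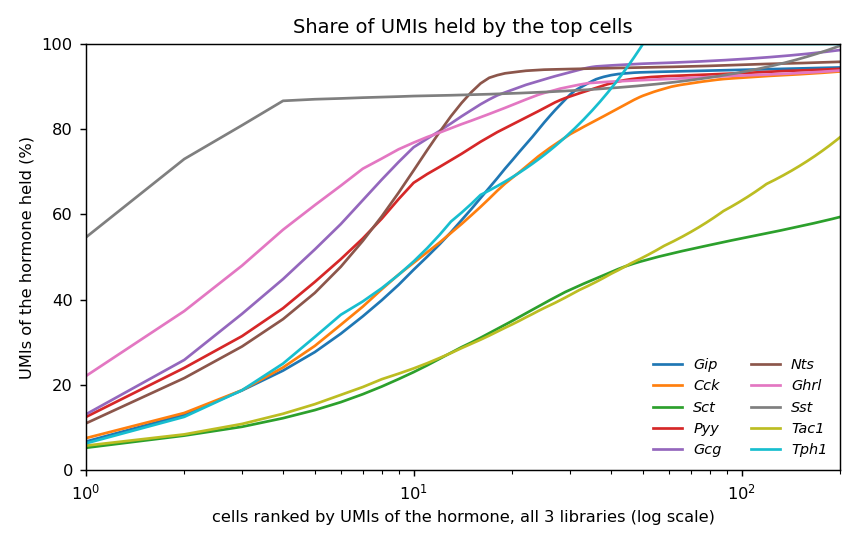
Cells of the 3 libraries are ranked by their UMIs of each hormone on a log axis, and the curve gives the percentage of the UMIs of that hormone held up to that rank. The Sst curve starts at 54.6% and those of Sct and Tac1 stay lowest, at 23.0% and 23.9% for 10 cells.

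The enteroendocrine cells held 90.5% of all UMIs of Gip, 90.4% of Pyy, 89.9% of Nts, 88.6% of Gcg, 87.9% of Cck, 83.1% of Ghrl, 77.1% of Tph1, 54.7% of Sst, 53.2% of Sct and 36.5% of Tac1. By library these shares were 96.9%, 24.6% and 88.9% for Gcg and 90.9%, 35.2% and 84.8% for Ghrl, so that in B + A 0 most UMIs of both lay outside the enteroendocrine cells, whereas those of Gip were 96.8%, 86.6% and 82.1%. The remainder was made of producers that the rule missed and of low levels spread over many cells.

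Outside the enteroendocrine cells, 34 cells produced a hormone other than Sct and Tac1, with 14, 9 and 11 in the libraries, and 23 of them had a UMI of a gene of the rule. One of these, in B + A 10, held 1819 Gip UMIs of 3321 (54.8%) and had a sum of 9.03, just short of the limit. Another, in B + A 0, held 192 Gcg, 75 Cck, 68 Ghrl, 12 Pyy and 11 Sct UMIs with a sum of 5.86. For Sst the 3 producers outside had 296 UMIs in AOS 0 and 127 and 92 in B + A 10, beside the 875 of the enteroendocrine cell. With both kinds of cell counted, 54 of 4106 cells (1.32%, 0.989 to 1.71), 25 of 3195 (0.782%, 0.507 to 1.15) and 54 of 5352 (1.01%, 0.759 to 1.31) produced a hormone other than Sct and Tac1.

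The next question was whether the hormones differed between vehicle, busulfan, and busulfan with AOS. Enteroendocrine cells made up 1.39% (1.05 to 1.79), 0.876% (0.583 to 1.26) and 1.08% (0.824 to 1.40) of cells. B + A 0 was 0.512 percentage points below AOS 0 (-0.512, interval -0.999 to -0.0125), B + A 10 0.207 points above B + A 0 (-0.251 to 0.621) and 0.305 below AOS 0 (-0.305, -0.778 to 0.141). The last 2 intervals hold 0, and the first ends close to it. When each cell was thinned to 1000 UMIs, where 1 UMI of a gene of the rule is enough, the shares were 1.68%, 1.72% and 1.76% and the first difference was 0.041 points the other way.

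The summed level of the 10 hormones was 1969 per 10000 (1954 to 1985), 1414 (1398 to 1430.1) and 1731 (1715 to 1748). On the log2 scale B + A 0 stood at -0.48 from AOS 0, B + A 10 at 0.29 from B + A 0 and at -0.19 from AOS 0, so that all 3 differences were under 2-fold. Taken as a mean over cells, the level of B + A 0 stood at 0.0715 from AOS 0 and that of B + A 10 at 0.13, and where at least 2 of the 4 genes of the rule had to be detected B + A 0 stood at 0.0804.

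Gcg had the widest difference among the hormones with more than 1 producer. Its level was 95.01 (91.7 to 98.4), 4.86 (3.97 to 5.89) and 40.9 (38.4 to 43.6). AOS 0 was thus highest and B + A 0 lowest. It was produced by 16 of 57, 3 of 28 and 10 of 58 enteroendocrine cells, that is 28.1% (17.0 to 41.5), 10.7% (2.27 to 28.2) and 17.2% (8.59 to 29.4), and these intervals overlap. The log2 ratio was -4.29 between B + A 0 and AOS 0, 3.07 between B + A 10 and B + A 0 and -1.22 between B + A 10 and AOS 0. The 3 strongest Gcg cells, with 609, 599 and 505 UMIs, were all in AOS 0, and in B + A 0 the strongest cell, with 192 UMIs, lay outside the enteroendocrine cells, where 56.9% of the library's Gcg UMIs were in 4 producers. Over all cells of each library Gcg was at 0.9002 (0.869 to 0.932), 0.160 (0.145 to 0.177) and 0.469 (0.441 to 0.498) per 10000, in the same order, with 17, 7 and 11 producers. The log2 ratio over all cells was -2.49 between B + A 0 and AOS 0, 1.55 between B + A 10 and B + A 0 and -0.94 between B + A 10 and AOS 0, each smaller than within the enteroendocrine cells. Without the strongest enteroendocrine cell of each library the level was 76.2, 1.84 and 29.1, a log2 ratio of -5.36 between B + A 0 and AOS 0.

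Ghrl followed the same order between AOS 0 and B + A 0. Its level was 87.4 (84.2 to 90.6), 11.1 (9.76 to 12.6) and 170.5 (165 to 176), with 14, 3 and 9 producers among the enteroendocrine cells (24.6%, 10.7% and 15.5%, in overlapping intervals). The log2 ratio was -2.97 between B + A 0 and AOS 0 and 3.94 between B + A 10 and B + A 0. In B + A 0, 46.5% of the library's Ghrl UMIs were in 3 producers outside the enteroendocrine cells. Over all cells Ghrl was at 0.882 (0.852 to 0.914), 0.258 (0.239 to 0.278) and 2.05 (1.99 to 2.11) per 10000, with log2 ratios of -1.78 and 2.99 in these comparisons. In B + A 10 a single cell held 46.8% of the Ghrl UMIs of the enteroendocrine cells, and without it the level was 90.7, while in AOS 0 the level without the top cell was 59.4 and in B + A 0 6.93. Without the top cell of each library the 3 levels kept their order.

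The other hormones differed less. Gip was at 1060.3, 632 and 691 per 10000, made by 17, 9 and 20 cells, and its share of producers was nearly level at 29.8%, 32.1% and 34.5%. Nts was at 139, 238 and 199.7, made by 5, 6 and 13 cells. Sct was at 188, 262 and 293, made by 44, 17 and 42 cells, and Cck at 195, 140.5 and 169, made by 28, 11 and 37 cells. The share of Cck producers was 49.1% (35.6 to 62.7), 39.3% (21.5 to 59.4) and 63.8% (50.1 to 76.0), 24.5 points higher in B + A 10 than in B + A 0 (2.13 to 43.8). Pyy was at 168, 118 and 160.4, made by 22, 7 and 21 cells. Tac1 was at 8.15, 6.603 and 5.63, made by 9, 6 and 7 cells, and Tph1 at 0.710, 1.41 and 0.896.

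**Figure D4:**
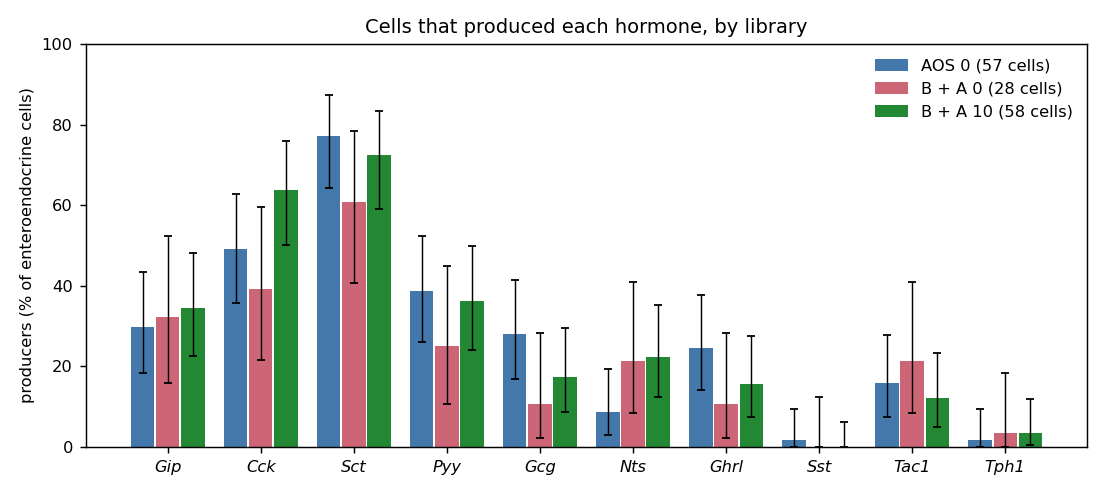
Bars give the percentage of enteroendocrine cells of each library that produced a hormone, with exact binomial 95% intervals for counting error. Gcg and Ghrl are lowest in B + A 0, at 10.7% each, and the intervals of the libraries overlap for every hormone.

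Set against all genes, 3 of 10 hormones (Gcg, Sst and Ghrl) were lower by 2-fold or more in B + A 0 than in AOS 0 and 0 higher. Of 3496 genes with at least 20 UMIs in the enteroendocrine cells of both libraries together, 9.15% were lower and 5.06% higher by this measure. Between B + A 10 and B + A 0, 2 of 9 hormones (Gcg and Ghrl) were 2-fold or more higher, beside 4.91% of 2912 genes, and 0 lower, beside 4.16%. Between B + A 10 and AOS 0, 2 of 10 (Gcg and Sst) were lower, beside 8.94% of 3625 genes, and 0 higher, beside 5.82%. The comparisons share their libraries. The median log2 ratio of the hormones was -0.49, 0.16 and -0.14 in the 3 comparisons, and that of all genes was -0.03, -0.04 and -0.12. Sst rested on the 1 AOS 0 cell, since its level was 27.1 in AOS 0 with that cell and 0.031 without it, with 1 UMI in B + A 0 and 0 UMIs in B + A 10.

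As a background, the level of each hormone was measured in 6 classes of the other cells, which were set by summed markers of T cells, Paneth cells, enterocytes, stem cells and goblet cells (a class at a high and one at a middle level of 3 goblet genes). The limits of these classes were chosen after the data were seen, and within 10% of a limit lay 164 cells for the goblet, 74 for the Paneth, 394 for the enterocyte, 202 for the stem cell and 25 for the T cell markers. For 6 of the 10 genes the classes lay close together. Gip lay between 0.490 and 0.936 per 10000, Cck between 0.120 and 0.276, Pyy between 0.099 and 0.182, Nts between 0.087 and 0.229, Ghrl between 0.073 and 0.112 and Gcg between 0.027 and 0.043. Even T cells, which make no gut hormone, had Gip at 0.651 and Sct at 1.08, and these levels count as background, far below the 829.8 and 241 of enteroendocrine cells. In the enterocyte class Gip was at 0.413, 0.761 and 0.731, and in the stem cell class at 0.246, 0.664 and 0.699, so that the background of Gip was lowest in AOS 0 although its enteroendocrine cells held the most Gip. Sst was at 0.161 in the stem cell class, which held 1 Sst producer.

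Sct was the exception among the hormones. It was at 7.97 per 10000 (7.73 to 8.21) in the cells high in goblet markers and at 5.74 (5.57 to 5.91) in the middle class, against 1.93 in Paneth, 1.06 in enterocyte, 1.08 in T and 0.423 in stem cell classes. For each Gip UMI there were 12.6 Sct UMIs in the goblet-high class, 10.0 in the middle class, 2.06 in the Paneth, 1.80 in the enterocyte and 0.864 in the stem cell class. Within libraries it was 24.5, 9.29 and 9.80 in the goblet-high class, 13.9, 9.78 and 6.55 in the middle class, 5.30, 1.60 and 2.02 in the Paneth class, 2.13, 1.44 and 1.82 in the enterocyte class and 1.48, 0.735 and 0.642 in the stem cell class. The part of free RNA in the Sct of these classes was not tested. After thinning to 1000 UMIs, 45.2% of the goblet-high cells (42.2 to 48.3) and 38.8% of the middle class had a Sct UMI. The Paneth class came next at 20.5% (17.1 to 24.1), then the enterocyte class at 11.6%, the T at 10.4% and the stem cell class at 3.57%. The median depths of these classes, in the same order, were 4593, 5976, 14036, 3912, 4318 and 5535 UMIs.

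The producers told the same of Sct. Outside the enteroendocrine cells 624 cells produced it, 205, 208 and 211 in the libraries, and 478 of them (76.6%) fell into the goblet marker classes, which held 17.7% of the other cells. These 478 were 21.6% of the 2216 cells of the goblet classes (19.9 to 23.3), with 23.8%, 25.7% and 17.3% in the 3 libraries. Their strongest cell had 80 Sct UMIs, against 1823 in the strongest enteroendocrine cell, and the median of the 624 was 14.4 per 10000 against 168 in enteroendocrine producers. Of the 624, 19 had a UMI of one of the 4 genes of the rule. No doublet caller was run, and the part of doublets in these cells was not tested.

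Tac1 was also higher in the goblet classes, and most so in the middle class. It was at 0.675 per 10000 (0.618 to 0.736) in the middle and 0.223 (0.184 to 0.267) in the high class, against 0.012 in the enterocyte, 0.021 in the stem cell and 0.063 in the Paneth class. All 13 Tac1 producers outside the enteroendocrine cells lay in the goblet classes, 2 of these cells produced Sct too, and none had a UMI of the 4 genes. Of all Tac1 UMIs 42.7% were in the goblet classes and 36.5% in enteroendocrine cells.

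**Figure D5:**
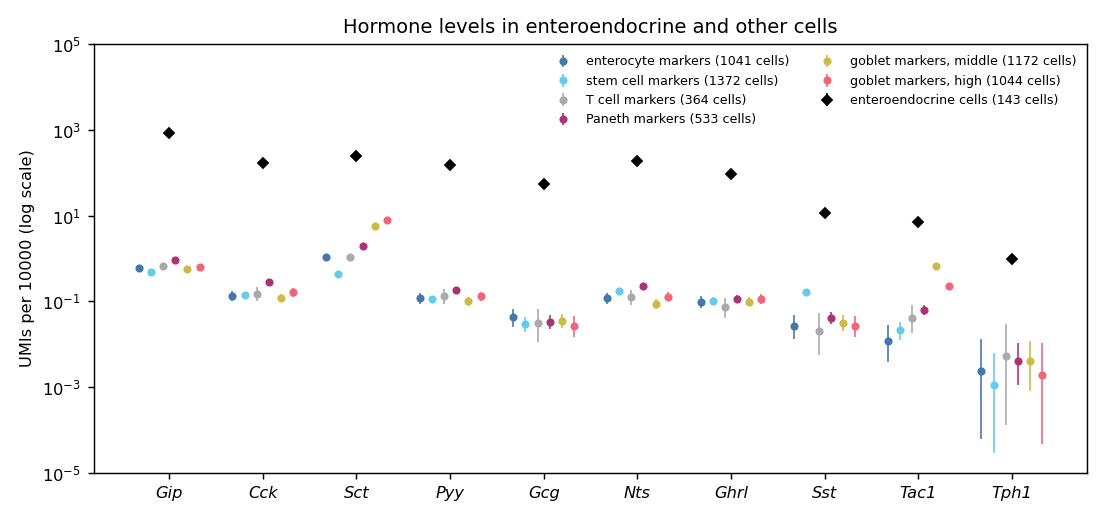
Points give the UMIs per 10000 of each hormone (log axis) in the 143 enteroendocrine cells and in 6 classes of other cells set by markers, with exact Poisson 95% intervals. Gip, Cck, Pyy, Nts, Ghrl and Gcg lie at a like low level in the 6 classes, whereas Sct is highest in the goblet classes, at 5.74 and 7.97, and Tac1 in the middle goblet class, at 0.675.

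The genes that make and release the hormones were read from fixed lists. Of 13 prohormone processing and granule genes 12 were in the table, 11 had at least 10 UMIs in the enteroendocrine cells and 11 were 10-fold or more higher there than in other cells, a measure that 3.53% of 6970 genes met. The rule itself used Chgb, Cpe and Scg2. Pcsk1n, the inhibitor of Pcsk1, was at 2.90 per 10000 against 0.005 in other cells, Pcsk1 at 1.70 against 0.015, the granule protein Scg5 at 3.38 against 0.008 and the calcium binding secretagogin Scgn at 2.39 against 0.005. Chga differed from Chgb in that 16.0% of its UMIs were in enteroendocrine cells, whereas 88.8% of those of Chgb were.

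Producers of different hormones differed in these genes. Scg2 had no UMI in the 22 Tac1 producers, while it was at 5.59 per 10000 in the other enteroendocrine cells and was seen in 23 of 29 Gcg, 31 of 46 Gip and 20 of 24 Nts producers. The 21 cells that produced no hormone had no Scg2 UMI either. Chga went the other way, at 11.5 in Tac1 producers and 3.64 in the rest, and at 1.44 in Gip producers. Pcsk1n was highest in Nts producers, at 8.36 against 2.11 in the rest, and low in Tac1 producers, at 0.667. Since the hormones took up part of the UMIs, these values were also taken per 10000 UMIs of all other genes, and Pcsk1n was then at 14.2 in Nts producers and 2.45 in the rest.

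Of 23 transcription factors 21 were in the table, 19 had at least 10 UMIs and 15 were 10-fold higher in enteroendocrine cells. That measure was met by 3.53% of 6970 genes. The 15 include Neurod1, whose level was set in part by the rule. Etv1, an ETS factor, went with Gcg: it was at 4.09 per 10000 in Gcg producers, 21 of 29 of which had a UMI, and at 0.517 in the rest. Isl1, a LIM homeodomain factor, was at 3.49 in Gcg and 3.06 in Gip producers but at 0.467 in Tac1 producers, and Lmx1a, a factor of enterochromaffin cells, was at 0.534 in Tac1 producers and 0.081 in the rest, on 13 UMIs in all. Neurog3, the factor that starts the lineage, was absent from Gip, Cck, Pyy, Gcg, Nts and Ghrl producers. It was at 3.41 in the 21 cells that produced no hormone, 10 of which had a UMI, and at 0.801 in Tac1 producers. The other 11 of the 21 had no Neurog3 UMI. These 21 cells lay below the limit for a producer and were not all free of hormone UMIs, with Tac1 at up to 9.86 per 10000. Their split from Tac1 producers therefore rests on the limit of 10.

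The same factors differed between libraries. Of 12 factors with at least 20 UMIs in the enteroendocrine cells of AOS 0 and B + A 0, 10 were 2-fold or more lower in B + A 0 (among them Neurog3, Neurod1, Insm1, Isl1, Pax6 and Etv1) and 0 higher, where 9.15% of all genes were lower. Neurog3 had 55, 0 and 15 UMIs, Isl1 99, 13 and 34, and Pax6 45, 8 and 17. Against B + A 0 these factors met the limit of 20 UMIs through AOS 0, and such a limit favours genes that are high there. Neurod1, one of the 4 genes of the rule, was at 4.201, 1.93 and 3.37 per 10000. Between B + A 10 and B + A 0, 2 of 9 factors were higher (Insm1 and Isl1), beside 4.91% of all genes, and 0 lower, beside 4.16%. Between B + A 10 and AOS 0, 7 of 14 were lower, beside 8.94% of all genes, and 0 higher, beside 5.82%. The median log2 ratio of the factors was -1.37, 0.34 and -1.01 in the 3 comparisons. Cells that produced no hormone numbered 8, 5 and 8, or 14.0%, 17.9% and 13.8%, in the 3 libraries.

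Of the granule genes, 2 of 11 were 2-fold lower in B + A 0 than in AOS 0 (Cpe and Scgn) and 0 higher, beside 9.15% and 5.06% of all genes. Chgb was at 35.5, 38.0 and 30.5 per 10000 in the 3 libraries. Chgb, Cpe and Scg2 belong to the rule, which held up their level in each library. The granule genes are therefore no fair contrast to the factors. Of 15 receptors of nutrients and other signals 9 were in the table, and 4 of 4 that could be compared were 2-fold lower in B + A 0 than in AOS 0: the fatty acid receptors Ffar2 and Ffar4, the lipid receptor Gpr119 and the cannabinoid receptor Cnr1. The share of all genes was 9.15%. In AOS 0 and B + A 0 they had 45 and 11 UMIs (Ffar2), 28 and 7 (Ffar4), 18 and 4 (Gpr119) and 22 and 5 (Cnr1). The limit of 20 UMIs was thus met mainly through AOS 0. At such counts it favours genes that are high there, so the count of 4 cannot be read as a result about receptors. Between B + A 10 and B + A 0, 0 of 2 receptors were 2-fold higher, beside 4.91% of all genes, and 0 lower, beside 4.16%. With 2 genes such a count says little about receptors. Between B + A 10 and AOS 0, 2 of 4 were lower (Gpr119 and Cnr1), beside 8.94% of all genes, and 0 higher, beside 5.82%. Cnr1 went with Gip, at 1.15 per 10000 in its producers and 0.075 in the rest, and Gpr119 with Gcg, at 1.36 and 0.141. Of 7 monoamine genes all were in the table, and 5 had at least 10 UMIs in the enteroendocrine cells. Of these 5, 2 were 10-fold or more higher there than in other cells, beside 3.53% of 6970 genes. They were Tph1, itself a member, and Gch1 (10.8-fold). Ddc and Slc18a1 were higher by less than 10-fold, and Maob was lower, at 0.299 against 0.674 per 10000. Of 20 other hormones and peptides 9 were in the table, 4 of them with at least 10 UMIs, and Iapp (amylin) was at 0.727 per 10000 with 35.3 in the Sst producer, while the guanylins Guca2a and Guca2b were lower in enteroendocrine than in other cells, at 2.95 against 26.8 and 3.84 against 11.9. Of 22 receptors of the hormones 4 were in the table, and the somatostatin receptor Sstr1 alone had at least 10 UMIs, at 0.416.

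Last, the genes most like each hormone were sought among 6729 genes seen in at least 10 of the 143 cells, by the correlation of ln(1 + UMIs per 10000) across cells. The points share libraries and depth, and r is given as a description. Gip was most like Fabp5 (r = 0.81; 0.79, 0.94 and 0.78 in the libraries), a fatty acid binding protein, then Gatm (0.69), an enzyme of creatine synthesis, and Phlda1 (0.65). Gcg was most like Etv1 (0.58), Cck (0.54) and Pyy (0.53), Cck like Sct (0.65), and Sct like Myl7 (0.72), a myosin light chain, and Rbp4 (0.67), the retinol carrier. Nts was most like Agr3 (0.64), Crip1 (0.60) and Agr2 (0.57), of which Agr3 and Agr2 are disulfide isomerases of secretory cells and Agr2 a goblet marker. Tac1 was most like Rab3c (0.78; 0.89, 0.57 and 0.78 in the libraries), a small GTPase of secretory vesicles, then Tph1 (0.58) and Tuba1b (0.52). Ghrl was most like Maged2 (0.50). The genes Cpe and Scg2 were also among the nearest of Cck and Sct, but they belong to the rule.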

How the data were processed

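Droplet libraries (10x Genomics 3′ chemistry) were made from 3 groups, 1 library each. The authors aligned the reads to mm10 with Cell Ranger (version 2.2.0 in the submitters' processing notes), removed cells with few genes and genes seen in few cells, and deposited natural log values, ln(1 + x), with x the UMI count scaled to 10000 per cell. Whole UMIs were recovered from these values for 100% of 24333763 nonzero entries (within 0.01 UMI), so that sums and counting intervals could be computed. Groups were taken from the treatment labels, because the source names of the B + A libraries do not match them.

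Levels are UMIs per 10000 UMIs of the cells summed. Intervals are exact binomial for shares, exact Poisson for levels, Newcombe for differences of shares and exact binomial for log2 ratios. No p-value was computed, since each group is 1 library. A 2-fold difference was read for genes with at least 20 UMIs in the enteroendocrine cells of both libraries together, and percentages of all genes past it stand beside the counts. The members and the gene lists were chosen with earlier results of these data known. Named genes were the 10 members, the fixed lists of pathway genes and cell type markers, and for each member the 3 genes of highest correlation where r was 0.5 or more. Not every gene of the lists is reported by name here. Doublets were not called and all deposited cells were kept. For comparison across depths cells were thinned to 1000 UMIs. The recovery of known folds was tested on simulated data. Alternatives changed the limit of the rule (5, 20), its genes, depth and the denominator, and one, a rule on totals without the 10 members, was added after seeing the data. Python 3.11.15, numpy 2.4.6, scipy 1.17.1, pandas 2.3.3 and matplotlib 3.10.9 were used.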

Additional observations from a re-analysis of the deposited data

How the results depend on the processing

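With 1 library per group, the intervals cover counting error and nothing of the spread between mice or lanes. The ratios of Gcg and Ghrl between B + A 0 and AOS 0, and between B + A 10 and B + A 0, kept their direction and stayed past 2-fold under all 11 alternatives run. For Gcg they ran from -5.36 to -2.80 and from 1.57 to 3.96 on the log2 scale, and for Ghrl from -3.09 to -1.77 and from 3.22 to 4.06. With cells thinned to 1000 UMIs, where 1 UMI meets the rule, the share of enteroendocrine cells was 1.72% in B + A 0 and 1.76% in B + A 10 and the difference between B + A 0 and AOS 0 turned to 0.0410 points. With a limit of 20 the share of B + A 10 was 0.785%. Without Cpe in the rule the Sst ratio of B + A 0 to AOS 0 turned to 0.53, as the only Sst producer was lost.

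The summed hormone level was less stable. Between B + A 0 and AOS 0 the log2 ratio was -0.64 with a limit of 5, -0.23 with 20, 0.0804 where at least 2 of the 4 genes had to be detected, -0.55 without Cpe, -0.64 after thinning, 0.0715 as a mean over cells, -0.58 without the top cell of each library and -0.57 with other genes as the denominator. Between B + A 10 and B + A 0 it was 0.49 with a limit of 5, -0.13 with 2 genes detected, 0.22 without Cpe, 0.41 without cells above the 95th percentile of UMIs, 0.40 after thinning, 0.34 for the rule on totals without the members, 0.0548 as a mean, 0.39 without the top cells and 0.35 with the other denominator. Between B + A 10 and AOS 0 it was -0.15 with a limit of 5, 0.0391 with 20, -0.0471 with 2 genes detected, -0.33 without Cpe, -0.0637 without the deepest cells, -0.25 after thinning, -0.14 for the rule without the members, 0.13 as a mean and -0.23 with the other denominator. The cause of these moves was not tested.

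Counts of members past 2-fold moved too. Higher in B + A 0 than in AOS 0 was 1 member with a limit of 20 and 1 without the top cells, and 2 with 2 genes detected and 2 as a mean. Lower in B + A 10 than in B + A 0 was 1 with 2 genes detected and 1 as a mean. Higher in B + A 10 than in AOS 0 were 2 with a limit of 20, 1 with 2 genes detected, 1 without Cpe and 1 without the deepest cells, and lower were 0 with a limit of 20 and 1 where a UMI was asked of each library. No paired analysis was possible because each group was 1 library.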
